A study of Mus musculus with 27 samples.

Results

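The comparison described here asks which genes responded differently in skull and in brain 0.5 h after ultraviolet B light was given to the skull. It takes the change in skull (0.5 h over control) and subtracts the change in brain (0.5 h over control), gene by gene, in a single model of 4 groups. It uses 12 of the 27 libraries of the series: 3 each of skull 0.5 h, skull control, brain 0.5 h and brain control. Of 19883 genes tested, 19 had a 0.5 h effect that differed between the tissues at an adjusted p under 0.05 (edgeR's quasi-likelihood test, Benjamini-Hochberg adjustment), and these 19 genes are described below.

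Messenger RNA was sequenced from mouse skullcap, meninges and brain in a study of light given to the cranium, of immune cells at the brain's borders and of recovery after stroke. In the 0.5 h groups the interparietal bone had been irradiated with ultraviolet B light (311 nm, 2 mW) 0.5 h before harvest, in the 24 h groups 24 h before harvest, and the control groups had no such treatment. Per the labels, blood was rinsed off the skullcap in cold buffer and the meninges were scraped off it, so skull libraries may also hold marrow and residual membrane. Strain, sex and age of the mice are not given, nor is it said whether the replicates of a group, or the tissues with equal numbers, came from separate animals. The p-values therefore measure only the spread between these libraries, which may be technical.

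Ultraviolet B is the short-wavelength part of sunlight that reaches the ground. It is absorbed by DNA and by other molecules of the outer tissue layers and activates the stress kinases JNK and p38 and the growth-factor kinase ERK. Early response genes such as the Nr4a nuclear receptors are transcribed within minutes of kinase, calcium or cyclic AMP signals, and their short-lived transcripts are soon cleared. Phosphatases of the Dusp family, cyclic AMP phosphodiesterases and calcineurin-regulated NFAT factors act as brakes or relays of such signals, and some of these genes carry cyclic AMP response elements in their promoters.

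The 2 promoters below are shown because, among the genes whose effect differed, they hold the most copies of the core of the cyclic AMP response element, the letters TGACG. Both are RefSeq windows of the GRCm38.p6 assembly, 250 bases before to 50 bases after an annotated start, given 5′ to 3′ on the strand of the gene. The Nr4a3 window is chr4:48045055-48045354 on the plus strand and the Dusp8 window chr7:142095235-142095534 on the minus strand. Capitals mark TGACG, or CGTCA where it lies on the other strand, and the full element TGACGTCA where both overlap.
Nr4a3: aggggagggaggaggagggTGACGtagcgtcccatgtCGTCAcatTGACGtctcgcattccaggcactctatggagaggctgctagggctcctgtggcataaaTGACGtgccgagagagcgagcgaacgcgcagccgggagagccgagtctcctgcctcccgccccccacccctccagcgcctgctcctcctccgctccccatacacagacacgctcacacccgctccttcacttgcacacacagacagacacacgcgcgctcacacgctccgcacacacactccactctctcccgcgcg
Dusp8: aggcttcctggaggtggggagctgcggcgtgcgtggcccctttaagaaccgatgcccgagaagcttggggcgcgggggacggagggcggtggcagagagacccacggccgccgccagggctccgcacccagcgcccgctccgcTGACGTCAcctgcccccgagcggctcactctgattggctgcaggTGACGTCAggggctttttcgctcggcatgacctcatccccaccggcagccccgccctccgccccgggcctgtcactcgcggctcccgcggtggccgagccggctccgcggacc

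The Nr4a3 window held 4 copies of TGACG counted on both strands and no full element. The Dusp8 window held 2 full elements, each of which is at once a TGACG on either strand. A promoter was found for 17 of the 19 genes (all but Paqr9 and Ccdc92b), with 23 windows in all. TGACG was present for 9 of these 17 genes, against 32.0% of the 13380 tested genes with a promoter and 20.8% of all 32851 windows. It was present for 4 of the 8 genes with a higher effect in skull that had a window (of 10 such genes) and for 5 of the 9 with a lower effect, namely Nr4a3, Dusp8, Pde4b, Chka and Rasgef1b. The full element TGACGTCA was found for Dusp8 alone among the 17 genes, against 3.1% of tested genes. The AP-1 motif TGANTCA was found for 0 of the 17, against 6.76% of tested genes. The E-box CACGTG was found for 2 of the 17 against 10.7%, the D-box TTANGTAA for 1 against 1.98%, and GGGCGG for 12 against 62.4%. A match of letters describes the window and does not show that a factor bound there.

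The 12 libraries held between 14702515 and 27305294 counts, the largest being brain control replicate 1. Replicates of a group correlated at 0.988 to 0.993 on the log scale. The labelled tissues carried their markers. The summed level of 12 neuron markers was 56.6 to 62.3 CPM (counts scaled to a common library total) in skull 0.5 h and 43.4 to 55.8 in skull control, against 8820 to 9410 in brain 0.5 h and 8970 to 9770 in brain control. The summed level of 12 osteoblast and osteocyte markers was 55400 to 83600 CPM in skull 0.5 h and 55200 to 99600 in skull control, against 57.4 to 88.8 in brain 0.5 h and 66.5 to 135 in brain control. A change of a transcript in such bulk tissue does not tell fewer cells of a type apart from less RNA per cell.

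The 19 genes made up 0.0956% of those tested. The effect in skull exceeded that in brain for 10 of them (0.0503%) and was below it for 9 (0.0453%). At an unadjusted p under 0.05 there were 2105 genes. The 2 tissues entered the difference unequally. In skull, 950 genes changed at 0.5 h (4.78%), 463 upwards (2.33%) and 487 downwards (2.45%), while in brain 0 genes passed (0%), with 1075 at an unadjusted p under 0.05 and a smallest adjusted p of 0.0932. DESeq2 called 37 genes in brain and limma-voom 0. Of the 19 genes, 18 were also among those called in skull, the exception being Polr3e, and for 932 genes called in skull the difference from brain was not called. For those 932 genes an equal effect in brain has not been shown: the median standard error of a difference was 0.20 on the log2 scale, against 0.14 for either tissue alone, over the 13691 genes with at least 1 CPM in both tissues.

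**Figure D1:**
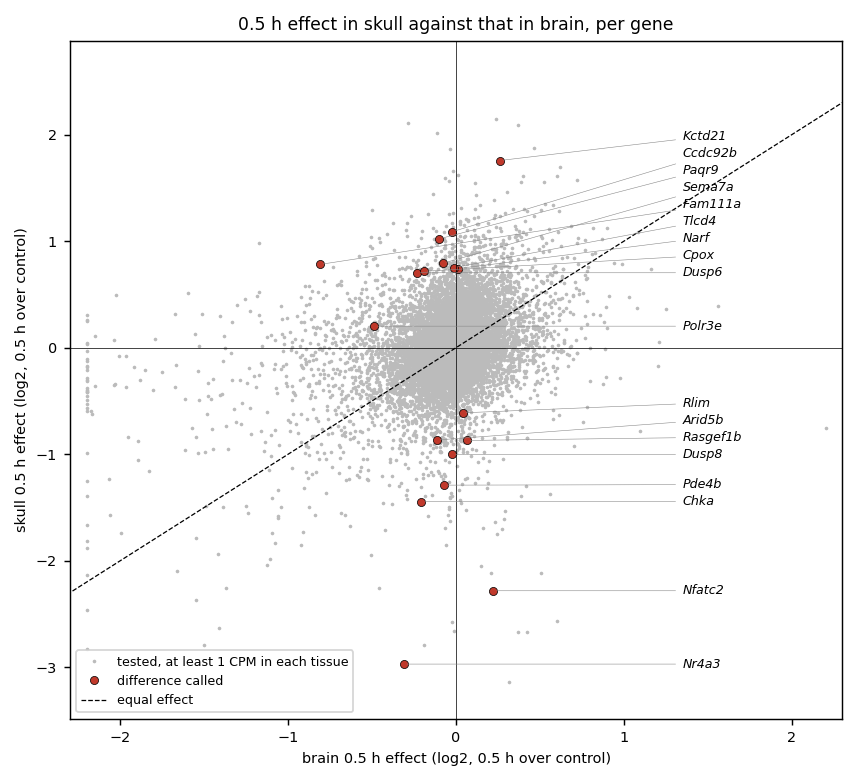
Skull effect (vertical axis) against brain effect (horizontal axis), both as log2 of 0.5 h over control, for the genes with at least 1 CPM in each tissue; red points are 18 of the 19 genes called (Rnf208 is under 1 CPM in skull) and the dashed line marks equal effects. The called genes lie spread along the vertical axis, from -2.97 for Nr4a3 to 1.76 for Kctd21 in skull, and except for Fam111a and Polr3e between -0.31 and 0.26 in brain; grey points past the axis limits are drawn at the edge.

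Nr4a3 (chr4:48045153-48086447, plus strand) encodes an orphan nuclear receptor (positions are of GENCODE M21 on GRCm38, and all 19 genes are protein-coding there) and is a classical early response gene. It had the smallest p of all genes for the difference. Its level in skull was 5.67, 4.31 and 5.43 CPM at 0.5 h, against 36.4, 35.4 and 49.2 CPM in control. Its level in brain was 37.1, 41.3 and 37.0 CPM at 0.5 h, against 40.0, 46.1 and 57.6 CPM in control. The 3 skull 0.5 h libraries stood below the other 9, whereas the brain groups overlapped. Nr4a3 was 7.83-fold lower at 0.5 h in skull (log2 -2.97 ± 0.18 SE, adjusted p = 2.53e-06), and the brain effect was -0.31 ± 0.15. The difference was -2.66 ± 0.23 with an adjusted p of 0.000365 in edgeR's test.

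Nfatc2 (chr2:168476410-168601657, minus strand), a transcription factor that enters the nucleus when calcineurin removes its phosphates, had 23.8, 20.7 and 21.5 CPM in skull at 0.5 h, against 87.8, 81.4 and 152 CPM in skull control. In brain it had 25.3, 18.6 and 21.9 CPM at 0.5 h, against 18.97, 20.3 and 17.2 CPM in control. The skull groups were far apart and control replicate 3 was the highest library, while the skull 0.5 h level had come to lie within the range of the brain libraries. The effect was -2.28 ± 0.21 in skull and 0.22 ± 0.21 in brain, and the difference was -2.50 ± 0.30 (adjusted p = 0.00961).

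The other early response transcription factors listed did not pass the test for the difference. Of 28 early response transcription factors tested, 0 had a higher and 1 a lower effect in skull, with a median difference of -0.05, against 0.04 over all genes. Nr4a2 and Nr4a1, the other Nr4a receptors, fell in skull by 1.33 and 0.80 on the log2 scale (adjusted p = 0.00475 and 0.00529), and their differences were -1.35 ± 0.29 (adjusted p = 0.121) and -0.55 ± 0.19 (adjusted p = 0.325). Egr4, a zinc finger factor induced by neuronal and growth-factor signals, had a difference of -1.42 ± 0.37 (adjusted p = 0.189). Fos, an AP-1 subunit, had a difference of 1.33 ± 0.35 in the other direction (adjusted p = 0.22). In skull 7 of the 28 fell and 0 rose, against 2.45% and 2.33% of all genes. This list, like those below, was chosen with earlier results of these data known, so its counts are descriptive only.

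Pde4b (chr4:102087543-102607259, plus strand) encodes a phosphodiesterase that breaks down cyclic AMP. It had 29.2, 26.3 and 34.4 CPM in skull at 0.5 h, against 73.6, 72.6 and 73.7 CPM in skull control. Brain libraries had 127.9, 120.2 and 125.6 CPM at 0.5 h, against 129.7, 122.5 and 140 CPM in control. The skull control libraries were close to each other and all 3 skull 0.5 h libraries were below them, while in brain the groups overlapped. The effect was -1.29 ± 0.09 in skull and -0.07 ± 0.09 in brain, with a difference of -1.22 ± 0.13 (adjusted p = 0.00186).

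Both called members of the list of ERK feedback genes were dual-specificity phosphatases, and they moved in opposite directions. Dusp8 (chr7:142079490-142095843, minus strand) acts on JNK and p38, and Dusp6 (chr10:99263231-99267489, plus strand) acts on ERK in the cytoplasm and is itself induced by ERK signalling. Dusp8 had 27.29, 20.6 and 22.2 CPM in skull at 0.5 h, against 52.2, 42.6 and 45.5 CPM in skull control. In brain Dusp8 had 135.1, 133.1 and 133.5 CPM at 0.5 h, against 146.4, 123.3 and 138.9 CPM in control. All skull 0.5 h libraries were below all skull control libraries, and the brain groups overlapped. The Dusp8 difference was -0.98 ± 0.15 (adjusted p = 0.0311), from -1.001 ± 0.11 in skull and -0.02 ± 0.10 in brain.

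Dusp6 had 62.2, 63.9 and 64.1 CPM in skull at 0.5 h, against 38.2, 38.6 and 40.0 CPM in skull control. Its brain level was 57.9, 59.5 and 58.8 CPM at 0.5 h, against 61.9, 62.5 and 83.1 CPM in control. Skull 0.5 h libraries were all above skull control, and brain 0.5 h libraries were all below brain control, of which replicate 3 stood high. The effect was 0.70 ± 0.10 in skull (adjusted p = 0.00283) and -0.23 ± 0.10 in brain (adjusted p = 0.894), and the difference was 0.94 ± 0.14 (adjusted p = 0.0311). Of the 15 ERK feedback genes tested, 1 was called in each direction, against 0.0503% higher and 0.0453% lower over all genes, and the median difference was 0.04. Among the rest, Spry4, an inhibitor of receptor tyrosine kinase signalling, had a difference of -1.001 ± 0.29 (adjusted p = 0.241) and Spred2, a Sprouty-related inhibitor, one of 0.46 ± 0.12 (adjusted p = 0.174).

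Rasgef1b (chr5:99217426-99729065, minus strand), an exchange factor for small Ras-family GTPases that is also an early response gene in macrophages, had 10.2, 8.005 and 9.55 CPM in skull at 0.5 h, against 17.1, 17.4 and 16.3 CPM in skull control. In brain it had 77.9, 67.4 and 62.8 CPM at 0.5 h, against 63.0, 65.9 and 70.3 CPM in control. The skull groups did not overlap and the brain groups did. The difference was -0.93 ± 0.16 (adjusted p = 0.0403). Sema7a (chr9:57940112-57962865, plus strand), a membrane-anchored semaphorin that signals through integrins in immune and nerve cells, went the other way. It had 143.8, 181.4 and 158.2 CPM in skull at 0.5 h, against 89.0, 87.5 and 102.7 CPM in skull control, and in brain 158.1, 184.4 and 174.8 CPM at 0.5 h, against 187.9, 181.3 and 176.5 CPM in control. All skull 0.5 h libraries were above skull control, and the difference was 0.87 ± 0.14 (adjusted p = 0.0311).

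**Figure D2:**
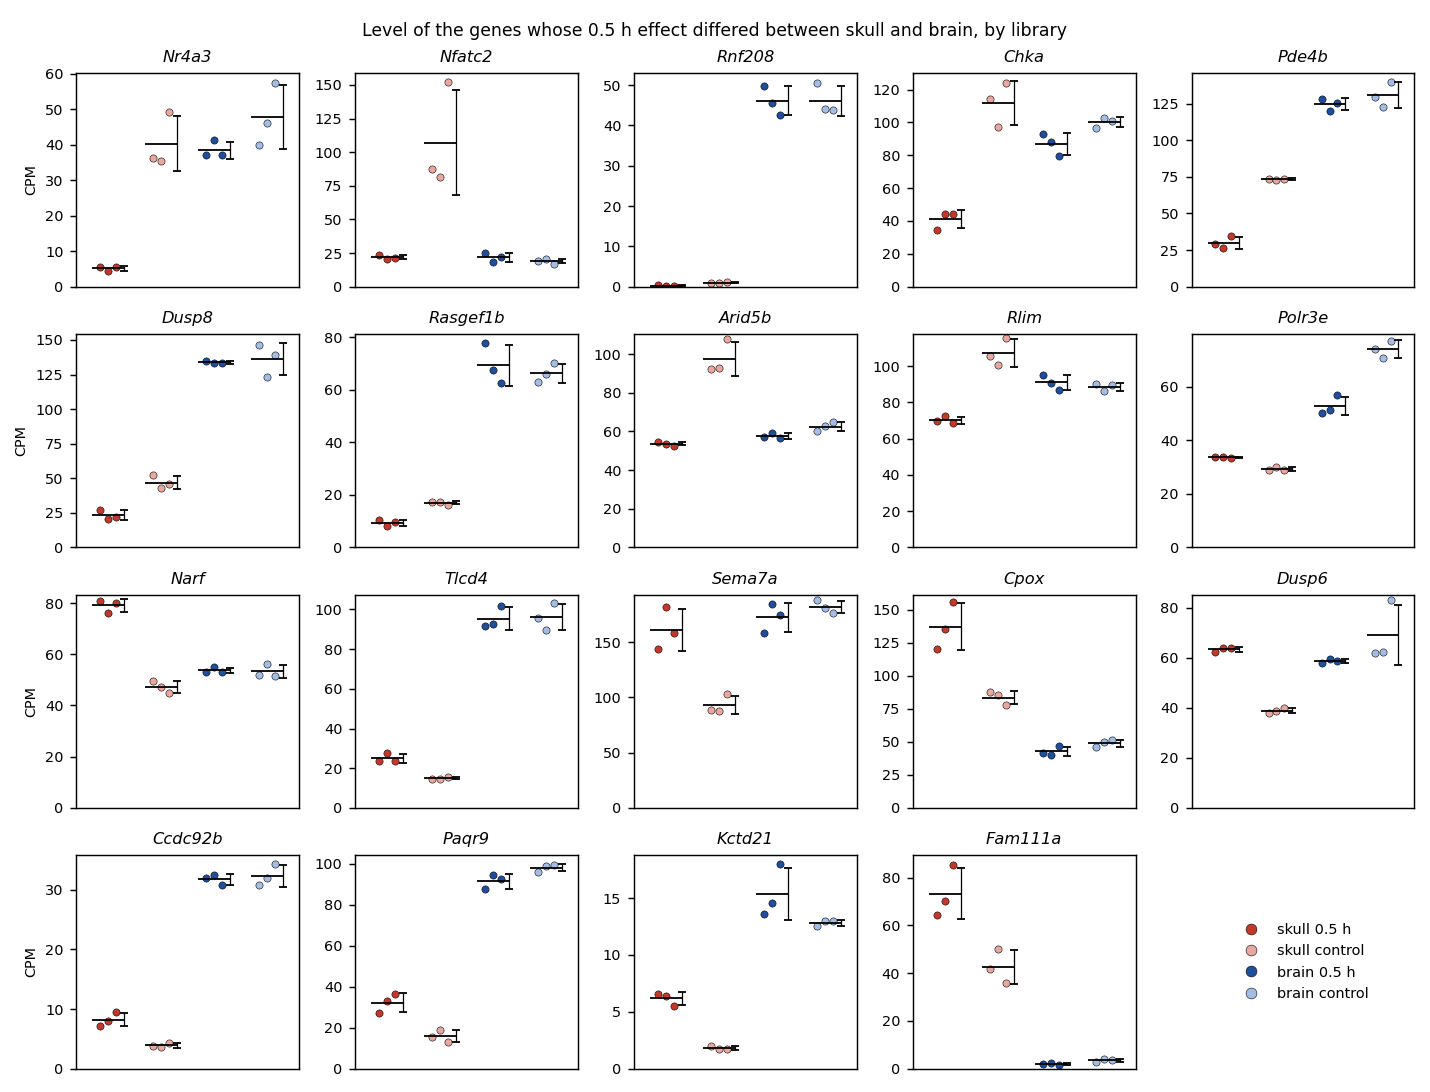
Level in CPM (vertical axes start at 0 and differ between panels) of the 19 genes in each of the 12 libraries, with skull 0.5 h, skull control, brain 0.5 h and brain control from left to right; horizontal lines are group means and bars are ± SD (n = 3 each). In every panel the skull groups are apart, such as 5.13 CPM at 0.5 h and 40.3 CPM in control for Nr4a3, while most pairs of brain groups overlap.

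Chka (chr19:3851773-3894369, plus strand) encodes choline kinase alpha, which starts the synthesis of phosphatidylcholine, the main membrane lipid. It had 34.7, 44.3 and 44.0 CPM in skull at 0.5 h, against 114.0, 97.1 and 124.1 CPM in skull control. Brain libraries had 92.7, 88.2 and 79.4 CPM at 0.5 h, against 96.9, 102.5 and 101.1 CPM in control. The 0.5 h libraries were below the controls in both tissues, by far more in skull. The effect was -1.45 ± 0.11 in skull and -0.21 ± 0.11 in brain, with a difference of -1.24 ± 0.15 (adjusted p = 0.00926).

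Cpox (chr16:58670292-58717636, plus strand), coproporphyrinogen oxidase of the heme pathway, had 120.5, 135.5 and 155.6 CPM in skull at 0.5 h, against 87.5, 85.1 and 77.8 CPM in skull control. Its brain level was 41.3, 40.1 and 47.0 CPM at 0.5 h, against 46.0, 49.7 and 51.3 CPM in control. Skull 0.5 h libraries were all above skull control, and brain groups overlapped. The effect was 0.72 ± 0.10 in skull and -0.19 ± 0.10 in brain, with a difference of 0.91 ± 0.14 (adjusted p = 0.0311). Exons of Cpox share 204 bases (3.1%) with Gpr15 on the opposite strand. Erythroid markers, genes of red cell precursors, moved with Cpox in skull: their summed level over 11 genes was 5980 to 9260 CPM in skull 0.5 h and 5680 to 6340 in skull control, and 37.8 to 39.9 in brain 0.5 h and 27.6 to 45.9 in brain control. Of the 11 markers, none was at 0 in all libraries of a skull group and 2 were at 0 in all brain control libraries. In skull 6 of the 11 rose, against 2.33% of all genes, while 0 of 11 were called for the difference (1 at an unadjusted p under 0.05). Their part in the Cpox result was not tested.

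Arid5b (chr10:68092520-68278740, minus strand), a DNA-binding protein that works with a histone demethylase, had 54.3, 53.6 and 52.7 CPM in skull at 0.5 h, against 92.2, 93.0 and 107.7 CPM in skull control. In brain it had 56.9, 59.4 and 56.6 CPM at 0.5 h, against 59.9, 62.8 and 64.8 CPM in control. The 0.5 h libraries were again below the controls in both tissues, and the difference was -0.75 ± 0.11 (adjusted p = 0.0296). Rlim (chrX:103957163-103981284, minus strand), an X-linked ubiquitin ligase known for its part in X inactivation, fell in skull by 0.61 and had a brain effect of 0.04, with a difference of -0.65 ± 0.10 (adjusted p = 0.0316). Its mean level in skull was 70.1 ± 2.06 CPM at 0.5 h and 107.1 ± 7.59 CPM in control, and in brain 91.0 ± 4.12 CPM at 0.5 h and 88.6 ± 2.07 CPM in control (SD, n = 3 each).

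Polr3e (chr7:120917744-120947432, plus strand), a subunit of RNA polymerase III, which transcribes transfer RNAs, was the only one of the 19 genes not called in skull. It had 33.9, 33.7 and 33.5 CPM in skull at 0.5 h, against 28.8, 30.1 and 29.0 CPM in skull control. Brain libraries had 50.2, 51.5 and 56.8 CPM at 0.5 h, against 74.3, 70.6 and 77.2 CPM in control. The groups did not overlap in either tissue, and the directions were opposite. The effect was 0.20 ± 0.08 in skull (adjusted p = 0.17) and -0.49 ± 0.08 in brain, where the adjusted p was 0.0932. The difference was 0.69 ± 0.11 (adjusted p = 0.0372).

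Fam111a (chr19:12545740-12589768, plus strand), a nuclear protease that acts at DNA replication forks and restricts some viruses, also had opposite directions. It had 64.4, 70.3 and 85.3 CPM in skull at 0.5 h, against 41.7, 50.2 and 36.0 CPM in skull control. Its brain level was 1.81, 2.21 and 1.68 CPM at 0.5 h, against 2.68, 4.03 and 3.51 CPM in control. The groups did not overlap in either tissue, but the brain values rest on 29, 35 and 26 counts at 0.5 h and 75, 65 and 57 counts in control. The effect was 0.78 ± 0.15 in skull (adjusted p = 0.0108) and -0.81 ± 0.22 in brain (adjusted p = 0.768). The difference of 1.59 ± 0.27 had an adjusted p of 0.0403, the last to pass, and the next gene, Cnih2, had -1.37 ± 0.24 with an adjusted p of 0.0546. Exons of Fam111a share 592 bases (14.4%) with Gm16274 on the opposite strand, and since the strand setting of the counting is unknown, reads of the 2 genes cannot be told apart there.

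Kctd21 (chr7:97332327-97350213, plus strand), an adaptor of the CUL3 ubiquitin ligase, had the largest rise in skull of the 19 genes. It had 6.59, 6.43 and 5.54 CPM in skull at 0.5 h, against 2.03, 1.75 and 1.69 CPM in skull control. In brain it had 13.6, 14.5 and 17.96 CPM at 0.5 h, against 12.5, 12.96 and 12.99 CPM in control. The 0.5 h libraries were above the controls in both tissues. The level was 3.38-fold higher at 0.5 h in skull (log2 1.76 ± 0.19), the brain effect was 0.26 ± 0.16, and the difference was 1.496 ± 0.24 (adjusted p = 0.0372).

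Narf (chr11:121237253-121255856, plus strand), a nuclear protein that binds prelamin A, averaged 79.03 ± 2.46 CPM in skull at 0.5 h and 47.2 ± 2.27 CPM in skull control, and 53.7 ± 1.13 CPM in brain at 0.5 h and 53.3 ± 2.58 CPM in brain control (SD, n = 3 each). Its difference was 0.73 ± 0.11 (adjusted p = 0.0284). Paqr9 (chr9:95559657-95568023, plus strand), a membrane protein of the progestin and adipoQ receptor family, averaged 32.3 ± 4.63 CPM in skull at 0.5 h and 15.9 ± 2.92 CPM in skull control, and 91.5 ± 3.59 CPM in brain at 0.5 h and 98.1 ± 1.80 CPM in brain control, with a difference of 1.12 ± 0.17 (adjusted p = 0.0311). Tlcd4 (chr3:121201761-121283098, minus strand), a membrane protein with a TLC domain (earlier Tmem56), averaged 25 ± 2.37 CPM in skull at 0.5 h and 14.9 ± 0.50 CPM in skull control, and 95.3 ± 5.70 CPM in brain at 0.5 h and 96.3 ± 6.63 CPM in brain control, with a difference of 0.77 ± 0.13 (adjusted p = 0.0403). Ccdc92b (chr11:74619605-74641516, plus strand), a coiled-coil protein, averaged 8.23 ± 1.16 CPM in skull at 0.5 h and 3.89 ± 0.38 CPM in skull control, and 31.8 ± 0.92 CPM in brain at 0.5 h and 32.3 ± 1.80 CPM in brain control, with a difference of 1.11 ± 0.18 (adjusted p = 0.0372). All 4 genes rose in skull and had brain effects between -0.10 and 0.01. The 12 neuron markers were also at a slightly higher sum in skull 0.5 h (56.6 to 62.3 CPM) than in skull control (43.4 to 55.8 CPM), with 0 of 12 called in skull and a median skull effect of 0.07, and none at 0 in all libraries of a group. Erythroid markers had a median skull effect of 0.67 with 6 of 11 called, at the sums given for Cpox. Skeletal muscle markers had a median skull effect of 0.55 with 0 of 10 called and none at 0, and summed to 1560 to 5310 CPM in skull 0.5 h and 960 to 3760 CPM in skull control. Other marker lists lay on both sides of 0 in skull. The median skull effect was 0.18 for 8 astrocyte, -0.35 for 10 oligodendrocyte and -1.33 for 8 choroid plexus markers, with 0 called in each. Oligodendrocyte markers summed to 148 to 255 CPM in skull 0.5 h and 202 to 216 CPM in skull control. Choroid plexus markers were near the floor in skull, at 3.46 to 5.65 CPM in skull 0.5 h. In skull control they summed to 2.27, 64.6 and 6.06 CPM, so only replicate 2 stood high. The part of these marker lists in the 4 results was not tested, nor was that of any list in the 9 lower results. Meningeal fibroblast markers had a median skull effect of -0.28 and a median difference of -0.61 (9 of 10 below 0), with 0 called. They summed to 47600 to 69800 CPM in skull 0.5 h and 47200 to 79400 CPM in skull control. The median skull effect was -0.29 for 12 T and NK cell markers and 0.26 for 10 B cell precursor markers.

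Rnf208 (chr2:25242255-25244262, plus strand), a RING finger protein, was far lower in skull than in brain. It had 6, 4 and 3 counts in skull at 0.5 h (0.37, 0.24 and 0.16 CPM), against 16, 15 and 17 counts in skull control (0.98, 0.88 and 1.20 CPM). Brain libraries had 49.9, 45.7 and 42.7 CPM at 0.5 h, against 50.5, 44.2 and 43.8 CPM in control. The skull groups did not overlap and the brain groups did. The effect was -1.95 ± 0.30 in skull and -0.00 ± 0.12 in brain, and the difference of -1.95 ± 0.33 (adjusted p = 0.0403) rests on these few skull counts. Exons of Rnf208 share 159 bases (9.1%) with Cysrt1 on the opposite strand.

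All 19 genes had skull groups that did not overlap, as did 25% of all genes tested, which is a property the test itself selects for. In brain the groups did not overlap for 7 of the 19, against 11% of all genes, and these libraries too entered the choice of the 19, so nothing is read from that count. The 0.5 h libraries were below control for Chka, Arid5b, Paqr9, Dusp6, Polr3e and Fam111a, and above it for Kctd21.

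The meninges were not used to find these genes. Their libraries were fitted together with those of skull and brain, and whether the tissues came from separate animals is not given. In meninges 9 of the 19 were called at 0.5 h, against 1.24% of the 20903 genes tested in that fit. Nr4a3 fell by 2.25 ± 0.19 (adjusted p = 5.09e-05), Chka by 1.09 ± 0.11, Dusp8 by 0.86 ± 0.12, Pde4b by 0.63 ± 0.13, Rlim by 0.55 ± 0.08, Rasgef1b by 0.50 ± 0.11 and Arid5b by 0.35 ± 0.08. Kctd21 rose by 1.41 ± 0.23 (adjusted p = 0.00577) and Dusp6 by 0.62 ± 0.10 (adjusted p = 0.00628). Nfatc2 had -0.40 ± 0.18 in meninges (adjusted p = 0.355), and Paqr9, Ccdc92b, Tlcd4 and Polr3e had values between -0.13 and -0.05, opposite in sign to skull. Whether a meninges effect differed from that in skull or brain was not tested.

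**Figure D3:**
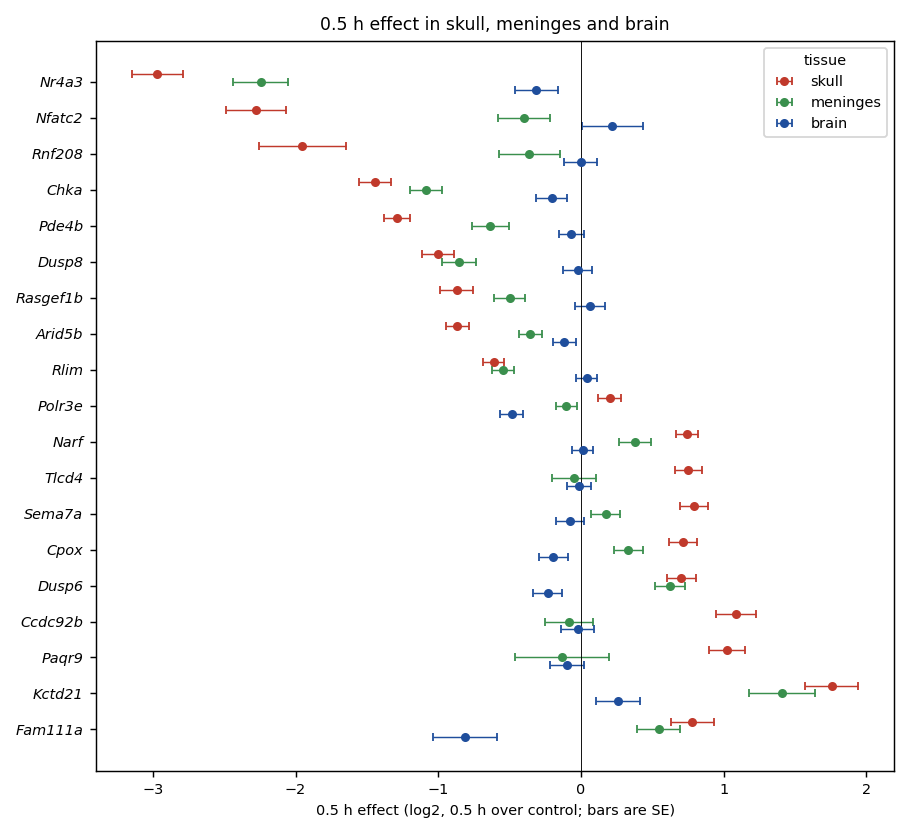
Log2 effect of 0.5 h over control (horizontal axis; bars are SE) of the 19 genes in skull (red), meninges (green) and brain (blue). For genes such as Nr4a3, Chka, Dusp8, Rlim, Dusp6 and Kctd21 the meninges value lies nearer to skull than to brain, such as -2.25 for Nr4a3. It lies nearer to brain for Nfatc2 (-0.40), Pde4b, Arid5b, Sema7a, Rnf208, Paqr9, Ccdc92b and Tlcd4.

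The 24 h groups share their control libraries with the 0.5 h groups, so the values of the 2 times are given side by side only. In skull at 24 h 12 of the 19 genes were called, against 18.2% of 21500 genes, and in brain 1 was, against 2.31%. In skull Chka had -1.96 at 24 h (adjusted p = 2.16e-10), beside -1.45 at 0.5 h. Nfatc2 had -2.23 at 24 h beside -2.28, Nr4a3 -1.89 beside -2.97, Pde4b -1.26 beside -1.29, Arid5b -1.22 beside -0.87, Dusp8 -1.04 beside -1.001 and Kctd21 1.76 at both times. Several genes had skull values near or across 0 at 24 h. Dusp6 had 0.13 beside 0.70 at 0.5 h, Narf -0.10 beside 0.74, Cpox -0.42 beside 0.72 and Paqr9 -0.60 beside 1.02, none of them called at 24 h. Polr3e had 0.41 in skull (adjusted p = 0.000321) and -0.92 in brain at 24 h (adjusted p = 5.6e-08), beside 0.20 and -0.49 at 0.5 h.

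Gene lists of pathways that ultraviolet light, injury or handling can touch gave few calls for the difference. The lists were chosen with earlier results of these data known, so their counts describe the lists and do not test them. Of 28 glucocorticoid-induced genes, 12 fell in skull and 0 rose, against 2.45% and 2.33% of all genes, with median effects of -0.49 in skull and -0.40 in brain. For the difference 0 of the 28 were called by edgeR, 4 lower by DESeq2 and 0 by limma-voom, and 7 were at an unadjusted p under 0.05, as were 2105 of all 19883 genes. Per1, a clock gene induced by glucocorticoids, had -1.56 ± 0.14 in skull and -0.68 ± 0.14 in brain, with a difference of -0.87 ± 0.20 (adjusted p = 0.134). Of 24 clock genes, 1 rose and 6 fell in skull, against 2.33% and 2.45% of all genes. For the difference 0 of the 24 were called by edgeR, 3 lower by DESeq2 and 0 by limma-voom, and 8 were at an unadjusted p under 0.05, against the same 2105 of 19883. Cry2, a repressor of the clock, had a difference of -0.997 ± 0.18 (adjusted p = 0.0621).

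The 339 zinc finger (Zfp) genes, which encode DNA-binding proteins, had a median difference of 0.17 with 245 above 0 (72.3%, against 55% of all genes). In skull 51 of them rose and 3 fell, against 2.33% and 2.45% of all genes. For the difference 0 were called by edgeR, 49 were at an unadjusted p under 0.05 (2105 of 19883 over all genes), DESeq2 called 9 higher and 2 lower and limma-voom 0. The nearest to the threshold was Zfp738, with a difference of 1.04 ± 0.18 (adjusted p = 0.0546).

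Among the pathway lists, the medians furthest from 0 shrank or changed sign without brain control replicate 1. The 37 DNA replication and mitosis genes had a median difference of 1.02, with 35 of 37 above 0 (55% of all genes) and medians of 0.26 in skull and -0.71 in brain. None was called for the difference by edgeR, with 21 at an unadjusted p under 0.05 (2105 of 19883 over all genes), 4 higher by DESeq2 and 0 by limma-voom. Without brain control replicate 1 the median was 0.46. The 32 inflammatory genes and NF-kB targets had a median difference of 0.48, with -0.60 in skull and -1.44 in brain, 0 called by edgeR, DESeq2 or limma-voom and 2 at an unadjusted p under 0.05. Without brain control replicate 1 that median was -0.46. In brain 0 of these 32 genes were called. Some brain effects had wide errors, such as Il1rn (-4.15 ± 1.66) and Tnf (-3.13 ± 1.51), and others narrower ones, such as Relb (-0.08 ± 0.21).

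**Figure D4:**
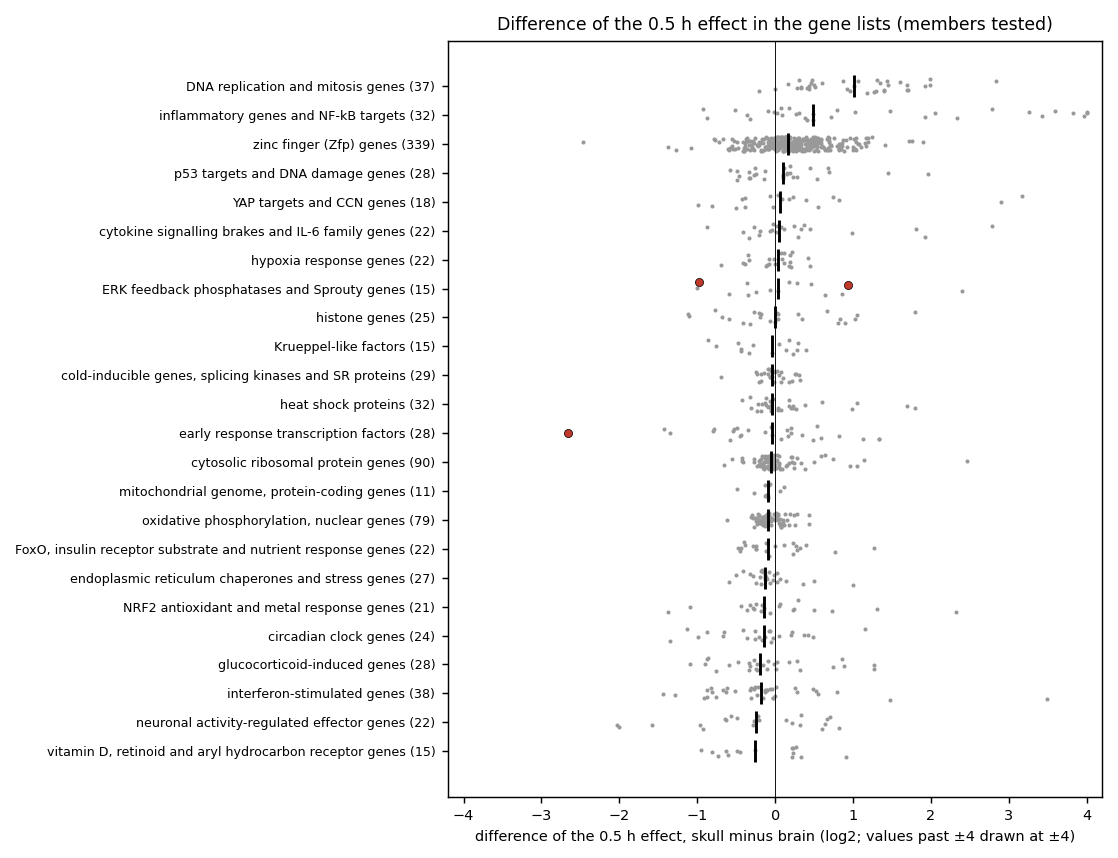
Difference of the 0.5 h effect, skull minus brain (log2, horizontal axis), for the tested members of 24 gene lists; points are genes, black bars list medians, and red points the 3 genes called. Medians run from -0.25 to 1.02, and Nr4a3, Dusp6 and Dusp8 are the only called genes on these lists.

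The 19 calls depended to different degrees on single libraries. Nr4a3, Pde4b and Chka were called without any of the 12 libraries, with a highest adjusted p of 0.00291, 0.0132 and 0.0446. Nfatc2 was called without 9 of the 12, and its adjusted p reached 0.0717 across the other 3 (skull 0.5 h replicate 2, brain 0.5 h replicate 3 and brain control replicate 3). The count of 19 fell to 3 without skull 0.5 h replicate 2, to 4, 5 and 3 without brain 0.5 h replicates 1, 2 and 3, to 4 without brain control replicate 2 or 3, and to 11 and 12 without skull control replicates 1 and 3. Across these 8 omissions the calls kept besides Nr4a3, Pde4b and Chka were none for skull 0.5 h replicate 2 and brain 0.5 h replicate 3, Dusp6 for brain control replicate 3, and Nfatc2 for brain 0.5 h replicates 1 and 2 and brain control replicate 2. Without skull control replicate 1, Nfatc2, Narf and Arid5b were kept as well, and without skull control replicate 3 all but Cpox, Rlim, Kctd21, Polr3e, Rasgef1b, Rnf208, Tlcd4 and Fam111a. Polr3e was lost without any single library. The 4 other omissions each lost some calls too. Without brain control replicate 1 these were Arid5b, Sema7a, Rlim, Kctd21, Polr3e, Ccdc92b, Rasgef1b, Rnf208 and Tlcd4, and without skull control replicate 2 Dusp6, Cpox, Sema7a, Kctd21, Polr3e, Ccdc92b, Rasgef1b and Tlcd4. Without skull 0.5 h replicate 1 they were Rlim, Kctd21 and Polr3e, and without skull 0.5 h replicate 3 Polr3e, Ccdc92b, Rasgef1b, Rnf208 and Fam111a. The highest adjusted p in these fits was 0.1504, for Fam111a, and no direction of the 19 genes changed.

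**Figure D5:**
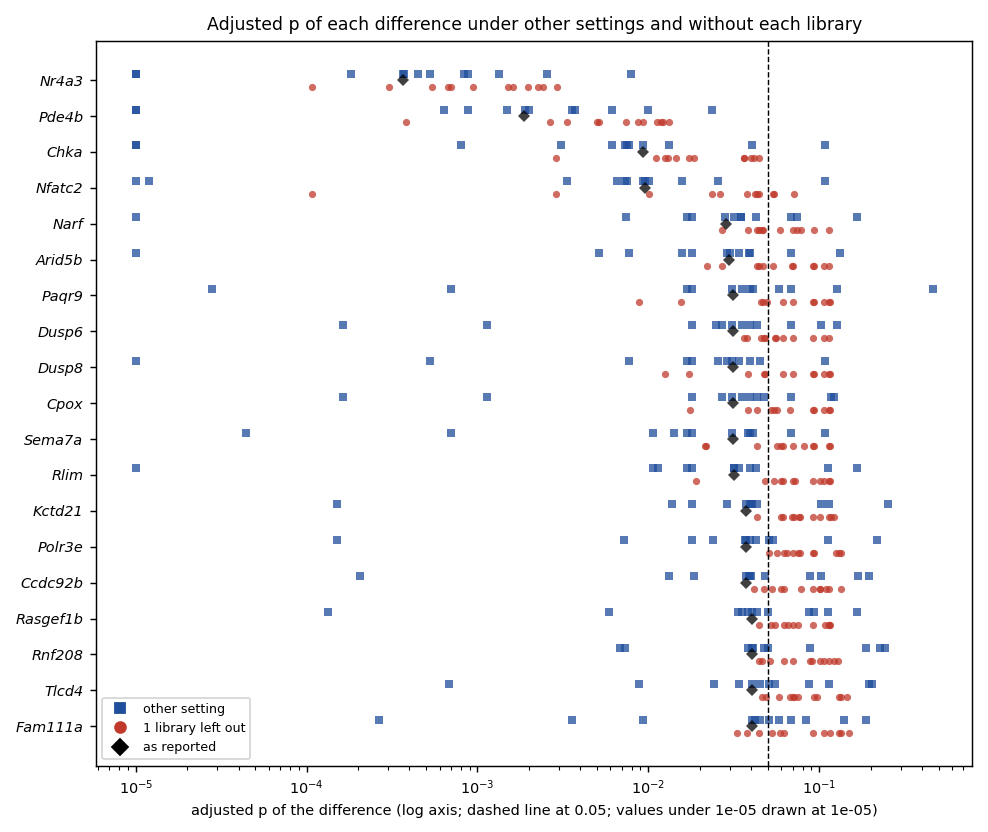
Adjusted p of the difference (horizontal log axis, dashed line at 0.05, values under 1e-05 drawn at 1e-05) of the 19 genes as reported (black), without each of the 12 libraries (red) and under 12 other settings (blue). The red points of Nr4a3, Pde4b and Chka all lie left of the line, while those of Polr3e all lie right of it.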

How the data were processed

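The deposited table holds counts per gene symbol, whole numbers, for 27 libraries of poly(A) RNA. The aligner HISAT2 (2.1.0) and the build mm10 are listed per the submitters' processing notes. Which counter, annotation and strand mode followed is not given in the sources used here. The members and gene lists were chosen with earlier results of these data known. In R 4.3.3, edgeR 4.0.16 was run on the 12 libraries with TMM scaling and filterByExpr (minimum count 10, total 15), which kept 19883 of 37095 genes. A robust quasi-likelihood fit with 1 mean per group and no replicate block gave the contrast (skull 0.5 h minus control) minus (brain 0.5 h minus control), with Benjamini-Hochberg adjustment over all genes at 0.05. Effects are log2, and SE is the effect over the root of F. CPM uses TMM-scaled totals. Meninges were fitted with the 18 control and 0.5 h libraries and 24 h with all 27. The naming rule took up to 12 called genes per direction with at least 1 CPM in each tissue, up to 4 under that level, and called list members; it named all 19. Alternatives were other scalings, filters, DESeq2 1.42.0, limma 3.58.1 (voom), replicate blocks and leaving out each library. The fit was tested on simulated counts with genes changed in skull 0.5 h only. The changed genes were drawn from those with at least 1 CPM in each tissue, so recovery under that level was not measured. It called 44 of 100 genes changed 2-fold, 87 of 100 changed 4-fold and 9 unchanged genes. Gene positions are GENCODE M21 (GRCm38) and promoters RefSeq GRCm38.p6. List members were matched by symbol.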

Additional observations from a re-analysis of the deposited data

Results flagged for a closer look

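For 19 genes the 0.5 h effect differed between skull and brain by the test of the difference itself, which is why they stand here. The log2 difference, skull minus brain, was below 0 for Nr4a3 (-2.66), Nfatc2 (-2.50), Rnf208 (-1.95), Chka (-1.24), Pde4b (-1.22), Dusp8 (-0.98), Rasgef1b (-0.93), Arid5b (-0.75) and Rlim (-0.65). It was above 0 for Fam111a (1.59), Kctd21 (1.496), Paqr9 (1.12), Ccdc92b (1.11), Dusp6 (0.94), Cpox (0.91), Sema7a (0.87), Tlcd4 (0.77), Narf (0.73) and Polr3e (0.69). Groups of 3 are too small to test a single library as an outlier.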

How the results depend on the processing

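The count of 19 genes for the difference became 63 with no filter on low counts, 228 with DESeq2 and 45 with all 27 libraries in the fit, and ranged from 3 to 26 when single libraries were left out. The count of 950 in skull became 1730 with DESeq2 and ranged from 323 to 962 without single libraries: it was 323 without skull 0.5 h replicate 2, 461 without skull 0.5 h replicate 1 and 433 without skull control replicate 3. The count of 0 in brain became 2 with no filter, 37 with DESeq2 and 3 with all 27 libraries, and ranged from 0 to 1 without single libraries, the 1 coming without brain control replicate 2. All 19 genes were among the 63 and the 228, and 12 were among the 45; the cause was not tested. With scaling by library totals alone the skull calls split into 700 higher and 234 lower, against 463 and 487 with TMM. The other scalings, filters and tools gave 15 to 26 genes for the difference. Under the 12 alternatives that kept every library, Nr4a3 and Pde4b kept their call in all 12, Chka, Nfatc2 and Dusp8 in 11, and the others in 6 to 10 (Rnf208 in 6 of the 11 that tested it). No direction of the 19 genes reversed in these or without any of the 12 libraries.

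Same-numbered libraries of different groups correlated at -0.256 to 0.096 in their deviations from the group means. For skull against brain this was 0.008 to 0.081 at 0.5 h and -0.077 to 0.009 in control. With 3 libraries per group and unlike tissues, such values cannot settle whether equal numbers share an animal. With the number as a replicate block across the 4 groups, 593 genes were called in skull and 5 for the difference, 0 higher and 5 lower. These 5 were Nr4a3, Pde4b, Chka, Nfatc2 and Dusp8. With a block within treatment 3 genes were called for the difference, 0 higher and 3 lower. Of these 3 genes, 2 were among the 19, Nr4a3 and Pde4b. None of the 10 genes with a higher effect in skull was called under either block. Depth limits the genes low in 1 tissue, Rnf208 in skull and Fam111a in brain.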
